A study of Rattus norvegicus with 15 samples.

Results

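Homologous recombination and Fanconi genes were followed as a set of 9 named genes: BRCA1, BRCA2, PALB2, FANCD2, FANCI, FANCA, BRIP1, ATM and ATR. They were matched by symbol in a table of 17463 gene symbols. BRCA1, BRCA2, PALB2, FANCD2, FANCA and ATM had a row, and all 6 passed the filter on low counts. FANCI, BRIP1 and ATR were not analysed here. The libraries came from mammary tumours of Fischer rats, and the protocol given for every library has the methylating carcinogen N-nitroso-N-methylurea (NMU) injected intraperitoneally at 50 mg/kg on 2 occasions. In the midkine group (9 libraries), rat midkine recombinant protein was injected at 300 ug/kg, 3 times per week, in courses of 2 weeks ahead of each NMU dose. The vehicle group (6 libraries) is labelled only by its treatment, and no age is given for either group. Some title numbers occur more than once within a group (vehicle 2, midkine 3 and midkine 4), and whether such libraries are tumours of the same rat is not stated, so p-values measure the spread between libraries.

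Breaks across both DNA strands that arise during replication are repaired from the sister copy by homologous recombination. BRCA1 prepares the broken end, PALB2 bridges it to BRCA2, and BRCA2 acts at the step of strand exchange. The Fanconi pathway unhooks crosslinks between the strands: FANCA is a subunit of the core ubiquitin ligase that marks FANCD2 on chromatin. ATM is the kinase that signals breaks at any cell cycle stage. Recombination is used in S and G2 phase, and many of its genes are transcribed with the cell cycle. MKI67, the gene of the Ki-67 antigen, and TOP2A, a topoisomerase of dividing cells, are standard markers of division, so the repair genes were set against MKI67 across the tumours.

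Libraries held between 4925504 and 8486523 counted reads (median 7252603). All 10 epithelial markers listed (EPCAM, keratins and others) were detected, with a summed level of 5319 to 7880 CPM (read counts normalised to library size) in vehicle and 2258 to 13100 CPM in midkine libraries. In midkine 3-1, 3-2, 4-1, 4-2 and 4-3 the muscle myosin gene MYH4 had at most 1 count. The other 10 libraries (6 vehicle, 4 midkine) carried 461 to 424500. Midkine 1 held the 424500, and the next highest count among those 10 was 993, in vehicle 4. Results are therefore also given within those 10 libraries. The 5 others are too few, and of a single group, for a value of their own. In bulk tissue, fewer cells of a type and less RNA per cell cannot be told apart. The repair genes were read at low depth: PALB2 had 15 to 77 counts per library, BRCA1 32 to 132, BRCA2 24 to 156, FANCA 32 to 127, FANCD2 39 to 280 and ATM 73 to 504. Counting error alone would give 22.1% of the variance of PALB2 over the 15 libraries, 19.1% for FANCA, 13.3% for BRCA2, 13.2% for BRCA1, 3.18% for FANCD2 and 2.96% for ATM.

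Promoter windows of the 6 genes were taken from RefSeq (assembly GRCr8, 250 bases before to 50 after the annotated start), which is not the build named for the counts. All 6 genes matched by symbol. They were searched on both strands for the words TTTCCCGC, TTTCGCGC, TTTGCCGC and TTTGGCGC, which spell the site of the E2F factors that drive S-phase genes. The cell cycle homology region (TTTGAA or TTCGAA) and the CCAAT box (CCAAT) of mitotic promoters were searched likewise. An E2F word was present in the windows of FANCD2 and ATM, 2 of 6 genes, against 2.14% of all promoters of this length. A CCAAT box was present in BRCA1, PALB2 and FANCA (37.5% of all promoters), and the cell cycle homology region in none of the 6 (19.7% of all promoters). None of these matches overlapped another. The 3 windows below are those of the gene with the highest r with MKI67 of the 6 (FANCD2), of BRCA1, and of the gene whose r with MKI67 did not pass the test (ATM), and capitals mark the words found, written as they lie on the strand of the gene.
FANCD2 (GRCr8 chr4:148234458-148234757, plus strand): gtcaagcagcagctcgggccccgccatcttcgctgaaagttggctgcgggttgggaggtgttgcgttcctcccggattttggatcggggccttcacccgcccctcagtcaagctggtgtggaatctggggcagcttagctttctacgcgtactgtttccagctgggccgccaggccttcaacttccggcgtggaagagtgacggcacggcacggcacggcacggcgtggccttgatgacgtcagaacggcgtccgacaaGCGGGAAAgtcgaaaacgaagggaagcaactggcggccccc
BRCA1 (GRCr8 chr10:86977532-86977831, minus strand): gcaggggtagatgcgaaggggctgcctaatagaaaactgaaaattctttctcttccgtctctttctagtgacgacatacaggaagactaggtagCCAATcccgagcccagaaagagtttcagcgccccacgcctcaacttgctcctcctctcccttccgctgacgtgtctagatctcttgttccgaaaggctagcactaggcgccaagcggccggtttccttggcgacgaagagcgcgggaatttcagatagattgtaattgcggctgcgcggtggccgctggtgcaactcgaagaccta
ATM (GRCr8 chr8:62828580-62828879, minus strand): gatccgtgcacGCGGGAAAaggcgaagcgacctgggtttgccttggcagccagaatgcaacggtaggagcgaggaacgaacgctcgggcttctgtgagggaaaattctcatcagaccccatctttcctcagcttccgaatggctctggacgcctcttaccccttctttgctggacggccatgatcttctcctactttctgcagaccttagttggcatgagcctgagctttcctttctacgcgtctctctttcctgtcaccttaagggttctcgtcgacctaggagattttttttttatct
The match in FANCD2 lay at bases 10 to 17 after the start and that in ATM at bases -239 to -232, both in the opposite orientation. The CCAAT box of BRCA1 lay at -156 to -152. A match is a stretch of letters and was not tested for binding.

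BRCA1, PALB2, FANCD2, FANCA and BRCA2 rose and fell with MKI67 from tumour to tumour, and ATM did not pass that test. Pearson's r of log2 CPM with MKI67 over 15 libraries was 0.96 for FANCD2, 0.93 for BRCA1, 0.89 for PALB2, 0.80 for FANCA and 0.73 for BRCA2. For ATM it was -0.10. The first 5 passed an adjusted p of 0.05, where p came from 100000 shuffles of the MKI67 values (two-sided) and was adjusted over the 11664 other genes kept. Over all those genes 4.99% passed with a positive r, 2.34% passed with a negative one, and the median r was -0.02. The r of FANCD2 was at or above that of 99.84% of genes, that of BRCA1 99.44%, that of PALB2 99.01%, that of FANCA 97.62% and that of BRCA2 96.04%.

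**Figure D1:**
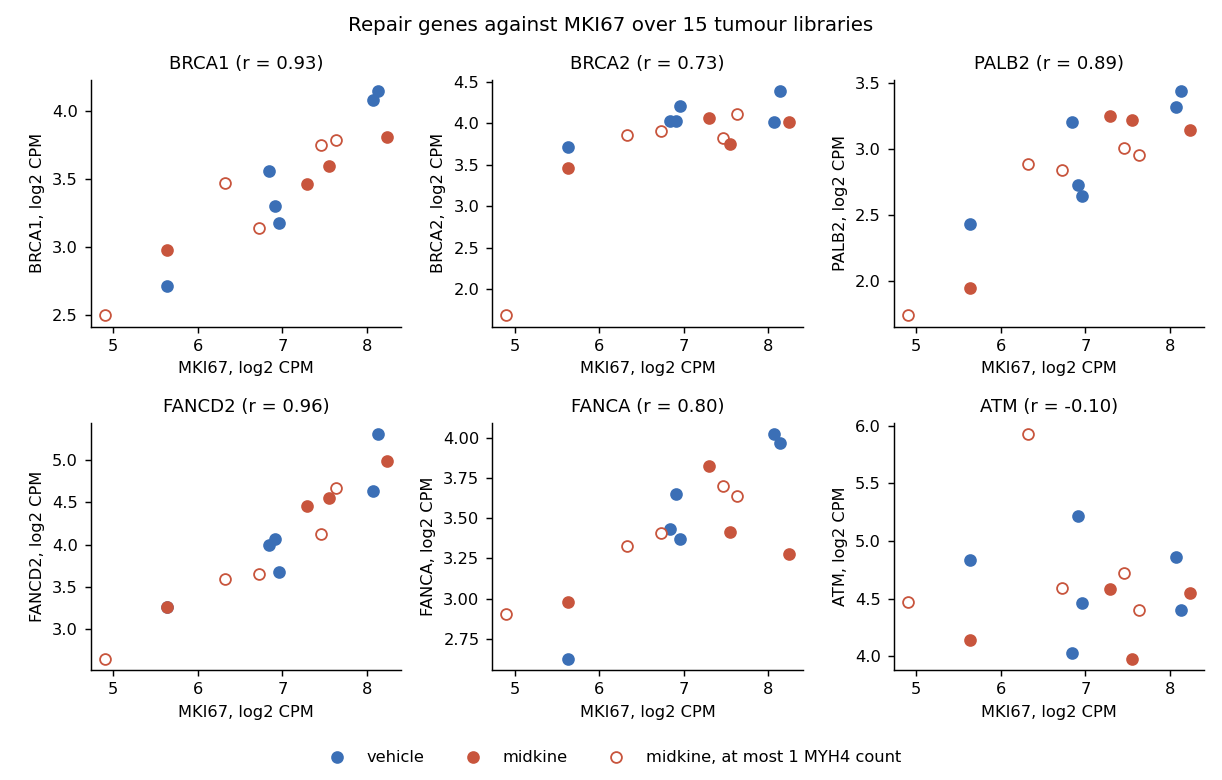
Each panel plots the log2 CPM of a repair gene (y axis) against the log2 CPM of MKI67 (x axis) in 15 tumour libraries, vehicle in blue and midkine in red, with open circles for the 5 midkine libraries with at most 1 MYH4 count. FANCD2 and BRCA1 follow MKI67 over its whole range (r of 0.96 and 0.93), BRCA2 has 1 library far below the rest, and ATM shows no trend past the test (r of -0.10).

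MKI67 itself spanned a 10.2-fold range. In vehicle libraries its lowest, median and highest levels were 49.3, 122 and 280 CPM. In midkine libraries they were 29.6, 156 and 302 CPM. Vehicle 3, vehicle 4 and midkine 5 were the high libraries and midkine 3-2, midkine 1 and vehicle 6 the low ones, so both groups had tumours at each end.

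FANCD2, the protein that the Fanconi core complex ubiquitinates, stood at 9.30 CPM in the lowest vehicle library, 16.0 at the median and 39.4 in the highest. In midkine libraries the corresponding values were 5.98, 17.2 and 31.5 CPM. Vehicle 3 and midkine 5 were highest and midkine 3-2 lowest, as for MKI67, and the groups overlapped. Its Spearman's rho with MKI67 was 0.98, the permutation p for r was 1e-05 (the smallest that 100000 shuffles can give) and the adjusted p was 9.80e-04. Without midkine 3-2 and vehicle 6, the 2 libraries farthest from the median MKI67 level, r was 0.93 (permutation p = 1e-05). In an edgeR fit with treatment and MKI67 together, FANCD2 gained 0.72 log2 units (SE 0.08) per log2 unit of MKI67. That slope had an adjusted p of 5.50e-05 by edgeR, in a fit where 4.17% of genes had a positive slope past the threshold.

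BRCA1 ran from 6.29 CPM in the lowest vehicle library over a median of 10.5 to 17.5 in the highest. Midkine libraries ran from 5.37 over 10.8 to 13.7 CPM. Vehicle 3 and vehicle 4 stood above every midkine library, midkine 3-2 stood lowest, and the other 8 midkine libraries lay inside the vehicle range. With MKI67 rho was 0.91 (permutation p = 1e-05 for both r and rho, adjusted p = 9.80e-04 for r). The value of r was 0.86 without the 2 farthest libraries (permutation p = 2.00e-04). The slope was 0.46 log2 units (SE 0.08) per log2 unit of MKI67 (edgeR adjusted p = 0.00424).

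PALB2, the bridge between BRCA1 and BRCA2, had 5.11, 7.63 and 10.6 CPM as the lowest, median and highest vehicle levels. In midkine libraries the same levels were 3.05, 7.44 and 9.24 CPM. Midkine 3-2 and midkine 1 lay below all vehicle libraries, and the other 7 midkine libraries lay within them. Its rho with MKI67 was 0.79 (permutation p = 7.60e-04), its r had a permutation p of 1e-05 (adjusted p = 9.80e-04), and r was 0.81 without the 2 farthest libraries (permutation p = 7.60e-04). The slope was 0.45 (SE 0.10, edgeR adjusted p = 0.0145).

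FANCA, of the core ubiquitin ligase, passed by r and not by ranks. Its lowest, median and highest levels were 5.90, 11.4 and 16.0 CPM in vehicle libraries. They were 7.20, 10.3 and 13.9 CPM in midkine libraries, all 9 of which lay inside the vehicle range. Midkine 5, the library with the most MKI67, held 9.44 CPM of FANCA, below the midkine median. The permutation p was 3.40e-04 for r (adjusted p = 0.0117) and 0.00977 for the rho of 0.65 (adjusted p = 0.143). Without the 2 farthest libraries r was 0.67 and did not pass (permutation p = 0.0122, adjusted p = 0.122). It passed without midkine 3-2 alone (permutation, adjusted p = 0.0400) and without vehicle 6 alone (adjusted p = 0.0265). It did not pass with libraries of the same title number averaged (adjusted p = 0.0991) or within the 10 libraries with MYH4 reads (adjusted p = 0.165). Without midkine 5 r was 0.90. The slope was 0.33 (SE 0.09, edgeR adjusted p = 0.0443).

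BRCA2, which acts on single-stranded DNA at the broken end, stood at 12.8, 16.0 and 20.7 CPM (lowest, median, highest) in vehicle libraries. In midkine libraries it stood at 2.93, 14.2 and 17.0 CPM. The low value, 24 counts, was that of midkine 3-2, and the next midkine library held 10.7 CPM. The permutation p was 4.40e-04 for r (adjusted p = 0.0141) and 0.0226 for the rho of 0.59 (adjusted p = 0.219). Without midkine 3-2 r was 0.65 (permutation p = 0.0106, adjusted p = 0.132), and without the 2 farthest libraries it was 0.61 (permutation p = 0.0270, adjusted p = 0.182). The call for BRCA2 therefore rests on that library, and its slope of 0.39 (SE 0.13) had an edgeR adjusted p of 0.0726. By ranks 3 of the 6 genes passed (FANCD2, BRCA1 and PALB2), against 2.71% of all genes with a positive rho.

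ATM, the break-signalling kinase, had levels of 16.1, 25.0 and 36.9 CPM (lowest, median, highest) in vehicle libraries. In midkine libraries they were 15.5, 23.2 and 60.6 CPM. Midkine 4-2 held the 60.6 CPM and the next midkine library 26.1 CPM, and midkine 4-2 was the only midkine library above the vehicle range. The permutation p for its r with MKI67 was 0.717 (rho -0.16, permutation p = 0.567, adjusted p = 0.848 for r), r was -0.14 without the 2 farthest libraries (permutation p = 0.641), and the slope was -0.10 (SE 0.15). Without midkine 4-2 r was 0.04. That library also had the highest summed T and NK cell markers (10 of 10 genes in the table), 1531 CPM against 39.3 to 553 CPM in the other midkine and 41.8 to 103 CPM in the vehicle libraries. B and plasma cell markers (7 of 9 genes in the table) stood there at 760 CPM against at most 118 CPM elsewhere. Their part in the ATM level was not tested.

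Whether the tie with MKI67 differed between ATM and the others was tested on the log2 ratio of each gene to ATM. The ratio correlated with MKI67 at r = 0.80 for FANCD2 (permutation p = 3.90e-04, adjusted p = 0.0535) and 0.72 for BRCA1 (permutation p = 0.00291, adjusted p = 0.154). For PALB2, BRCA2 and FANCA it was 0.71, 0.66 and 0.59 (permutation p = 0.00336, 0.00711 and 0.0187, adjusted p = 0.170, 0.247 and 0.367). None passed over the 11663 genes tested, of which 0.617% passed with a positive r. With p adjusted over all those genes, a difference in dependence on MKI67 between ATM and any of the other 5 genes was thus not called. The ratios were not computed without midkine 4-2, the library with 60.6 CPM of ATM.

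The same relation was computed within groups of libraries. In the 9 midkine libraries alone r was 0.98 for FANCD2, 0.93 for BRCA1, 0.91 for PALB2, 0.80 for BRCA2, 0.72 for FANCA and -0.10 for ATM. The first 3 passed (exact permutation, adjusted p = 0.00771, 0.0286 and 0.0401), against 2.67% of all genes. In the 6 vehicle libraries alone r was 0.97 for FANCA, 0.96 for BRCA1, 0.92 for FANCD2, 0.86 for PALB2, 0.76 for BRCA2 and -0.13 for ATM. No gene passed there (0.0% of 11664), while 1116 had an unadjusted exact permutation p under 0.05, and the smallest adjusted p was 0.326. With 6 libraries the smallest p of the exact test is coarse, so a call over 11664 genes would need many genes at that smallest p. The vehicle libraries alone could thus hardly return a call. Within the 10 libraries that carried MYH4 reads r was 0.95 for FANCD2, 0.93 for BRCA1, 0.87 for PALB2, 0.77 for FANCA, 0.69 for BRCA2 and 0.05 for ATM. FANCD2, BRCA1 and PALB2 passed there (permutation, adjusted p = 0.0102, 0.0194 and 0.0394), against 1.76% of all genes. With libraries of the same group and title number averaged, which left 11 values, the same 3 genes passed, with r of 0.97, 0.94 and 0.90, against 2.44% of all genes. The same 3 passed without the 2 farthest libraries, where 3.4% of all genes did. All but ATM passed with DESeq2 size factors (4.49% of all genes), a prior count of 0.5 (5.08%), no expression filter (3.45%), group means removed (5.9%) and TOP2A in place of MKI67 (4.54%).

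The 5 genes that passed with MKI67 were also set against each other, which is a description, since genes that each follow MKI67 will tend to follow one another. Over their 10 pairs r ran from 0.57 (BRCA2 with FANCA, rho 0.64) to 0.92 (BRCA1 with FANCD2, rho 0.91). BRCA1 and PALB2 had r = 0.88 (rho 0.85), and PALB2 and BRCA2, which bind each other, had r = 0.76 (rho 0.53). BRCA1 and BRCA2 had r = 0.68 (rho 0.53). ATM ranged from -0.15 with FANCD2 to 0.08 with BRCA2. These pairs share their libraries and their depth, and 15 pairs were computed.

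The genes of most similar pattern to each repair gene over the 15 libraries were taken as the 3 of highest r. For FANCD2 they were CKAP2 (0.97), PBK (0.97) and SPC25 (0.96), of which CKAP2 and SPC25 act at the mitotic spindle and kinetochore. For BRCA1 they were the nuclear lamina gene TMPO (0.93), the DNA polymerase epsilon subunit POLE2 (0.93) and MKI67 itself (0.93). For PALB2 they included the Fanconi ubiquitin-conjugating enzyme UBE2T (0.94) and the histone chaperone ASF1B (0.94). For BRCA2 they were DECR2, the thymidylate kinase DTYMK and the clamp loader subunit RFC5 (all 0.94). FANCA had KRT20 (0.91), PRKAR2B (0.90) and MAT1A (0.88), and ATM had INPP5B (0.90), the caspase CASP2 (0.86) and VPS13B (0.86). These values are descriptive, with no test.

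**Figure D2:**
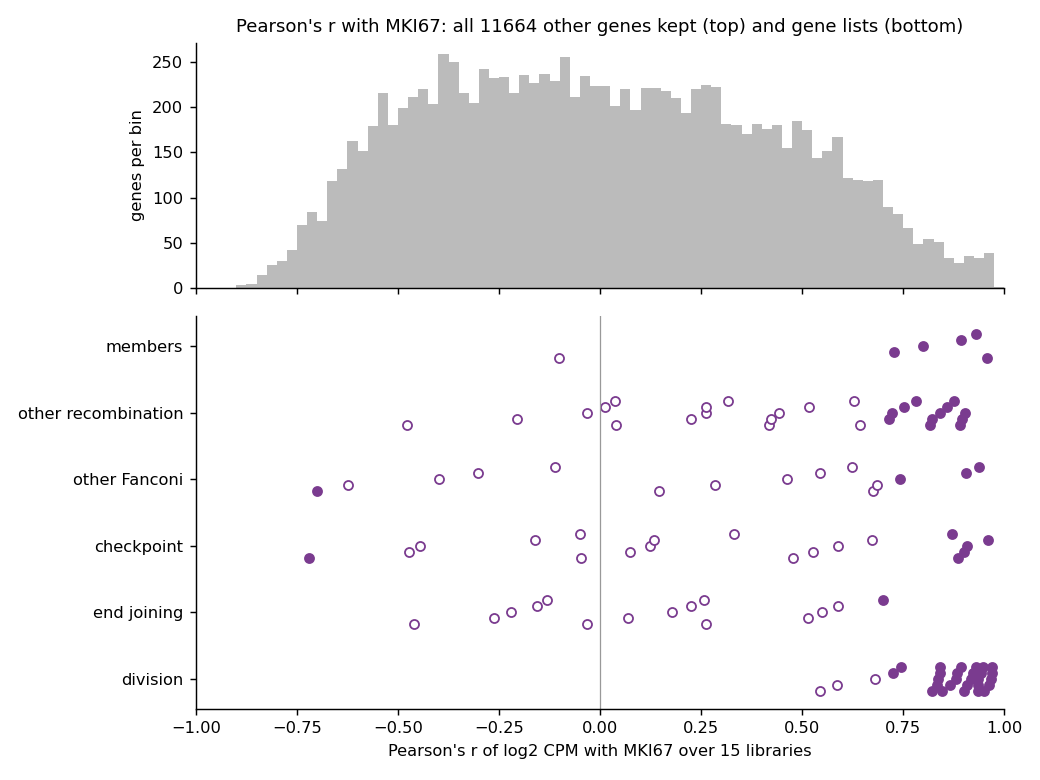
The upper panel counts the 11664 other genes kept by their Pearson's r with MKI67 over 15 libraries (x axis), and the lower panel places each gene of 6 lists on the same axis, filled where the adjusted p was under 0.05. The division list crowds at the right (median r of 0.90), 5 of the 6 repair genes followed here lie among it, and the end joining list spreads around 0 (median r of 0.18).

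Other genes of the pathway, listed with earlier results of these data known, were placed on the same scale. Of 28 other recombination genes 12 passed with a positive r and none with a negative one, and their median r was 0.57, where 4.99% of all genes passed with a positive r. BARD1, which pairs with BRCA1, was among them, with r = 0.88 (rho 0.91, permutation p = 5e-05). The translocase RAD54L had r = 0.90 (rho 0.75, permutation p = 1e-05). NBN of the end-sensing complex (r = -0.21, adjusted p = 0.676) and BRCC3 (r = -0.48, adjusted p = 0.234) were lowest, neither past the permutation threshold. The count of 12 was 5 within the 10 libraries with MYH4 reads (1.76% of all genes), 7 without midkine 3-2 (317 of 11597 genes in all) and 6 by ranks (2.71% of all genes). The list's median was 0.46 without midkine 3-2 and 0.43 by ranks. Without the 2 farthest libraries 7 passed with a positive r (3.4% of all genes) and 1 with a negative one (138 of 11664 genes in all). The median r was 0.43 there.

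Of 15 other Fanconi and crosslink genes 3 passed with a positive r (4.99% of all genes did), namely UBE2T (r = 0.94, rho 0.92), CENPS (r = 0.91, rho 0.94) and the core subunit FANCB (r = 0.74, rho 0.51). The translesion polymerase gene REV1 passed with a negative one (r = -0.70, rho -0.63, permutation p = 0.00357, adjusted p = 0.0493), and its partner REV3L had r = -0.62 (adjusted p = 0.0946). The list's median r was 0.46, against 0.27 without midkine 3-2 and a median rho of 0.21. USP1, which removes ubiquitin from FANCD2, had r = 0.69 (permutation, adjusted p = 0.0569). The count of 3 was 2 within the 10 libraries, without midkine 3-2 and by ranks, and REV1 did not pass in any of those 3 settings. REV1 also did not pass with DESeq2 size factors, no expression filter, title numbers averaged, the 2 farthest libraries left out or either group alone. With 1 library left out, a gene of the list passed with a negative r only without vehicle 6 and without midkine 5. The list kept 1 negative call with a prior count of 0.5, group means removed and TOP2A in place of MKI67.

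Of 19 checkpoint genes 5 passed with a positive r, against the same 4.99%, and 4 did within the 10 libraries (1.76% of all genes). CHEK2, the kinase downstream of ATM, had r = 0.96 (rho 0.93) and CHEK1, the kinase downstream of ATR, r = 0.89 (rho 0.79), both with a permutation p of at most 3e-05. TIMELESS (r = 0.91), H2AX (r = 0.90) and CLSPN (r = 0.87) made up the rest. RNF8, the ubiquitin ligase that acts after ATM at breaks, passed with a negative r of -0.72 (rho -0.77, permutation p = 0.00241, adjusted p = 0.0393). It did not pass within the 10 libraries, with no expression filter or in either group alone. Nor did it pass when any 1 of vehicle 2-2, 3, 4 and 5 or midkine 1, 2, 3-2, 4-3, 5 and 6 was left out. With any other single library left out, by ranks or with DESeq2 size factors, 1 checkpoint gene passed with a negative r. NPAT, the divergent neighbour of ATM, had r = -0.47 (rho -0.43, permutation p = 0.0747, adjusted p = 0.243). The median r of the list was 0.33, against 0.20 without midkine 3-2 and a median rho of 0.14.

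End joining, the repair route that needs no sister copy, was placed beside them. Of its 15 genes 1 passed, the Ku subunit XRCC6 (r = 0.70, rho 0.59, permutation p = 0.00260, adjusted p = 0.0409), and none passed within the 10 libraries, without midkine 3-2 or by ranks. A single gene of 15 is near the 4.99% of all genes that passed with a positive r. PRKDC had r = 0.59 (adjusted p = 0.122), LIG3 -0.26 and LIG4 -0.46. The median r of the end joining list was 0.18, against -0.22 without midkine 3-2 and a median rho of 0.004. The division list had 27 of 30 genes past the threshold, from MCM7 (r = 0.54) and PCNA (r = 0.59), which did not pass, to TOP2A (r = 0.97) and CENPF (r = 0.97), and a median of 0.90.

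Markers of other cell types did not pass with MKI67 in either direction: none of 10 epithelial, 8 basal, 9 fibroblast, 10 T and NK cell, 10 macrophage, 9 endothelial, 3 adipocyte, 4 erythroid, 1 B and plasma cell or 10 skeletal muscle genes kept, by the permutation test over 15 libraries. That count depended on single libraries for the basal list. Of its genes 3 passed with a positive r without midkine 5, where 697 of 11618 genes in all did. A single basal gene passed without vehicle 6 (629 of 11757 genes in all) and 1 without midkine 1 (740 of 11631). In other settings 1 epithelial gene passed with a positive r without the 2 farthest libraries (3.4% of all genes did). So did 1 T and NK cell gene within the 10 libraries (1.76%) and 1 basal gene with group means removed (5.9%). Of the adipocyte list 1 gene passed with a negative r with no expression filter and without each of vehicle 2-1, 3, 4 and 5. Those settings tested more adipocyte genes than the 3 kept over 15 libraries, 7 with no filter and 4 in the others. Settings that tested 3 called none. Of all genes 211 of 15083 passed with a negative r with no filter, and 173 of 11754 without vehicle 4 to 316 of 11772 without vehicle 3. All 10 T and NK cell genes had a negative r (median -0.43, lowest -0.56). All 8 basal genes had a positive one (median 0.49, highest 0.67). The part of cell composition in the relation of repair genes with MKI67 was not tested.

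None of the 6 repair genes differed between midkine and vehicle tumours beyond the spread between libraries. By edgeR's quasi-likelihood test 0.0% of 11665 genes passed an adjusted p of 0.05, while 10.1% had an unadjusted p under 0.05, and none of the 6 was among the latter. BRCA1 averaged 11.7 ± 4.47 CPM over the vehicle libraries (SD, n = 6) and 10.6 ± 2.90 CPM over the midkine libraries (SD, n = 9), and edgeR gave a log2 fold change of -0.14 (SE 0.26, adjusted p = 0.901). In the same order FANCD2 averaged 19.6 ± 10.9 and 17.6 ± 8.41 CPM (-0.16, SE 0.37, adjusted p = 0.924). PALB2 stood at 7.76 ± 2.24 and 6.96 ± 2.23 CPM (-0.15, SE 0.28, adjusted p = 0.896), and FANCA at 11.7 ± 3.74 and 10.4 ± 2.23 CPM (-0.17, SE 0.23, adjusted p = 0.862). ATM stood at 25.4 ± 7.41 and 25.9 ± 13.4 CPM (0.02, SE 0.28, adjusted p = 0.988).

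**Figure D3:**
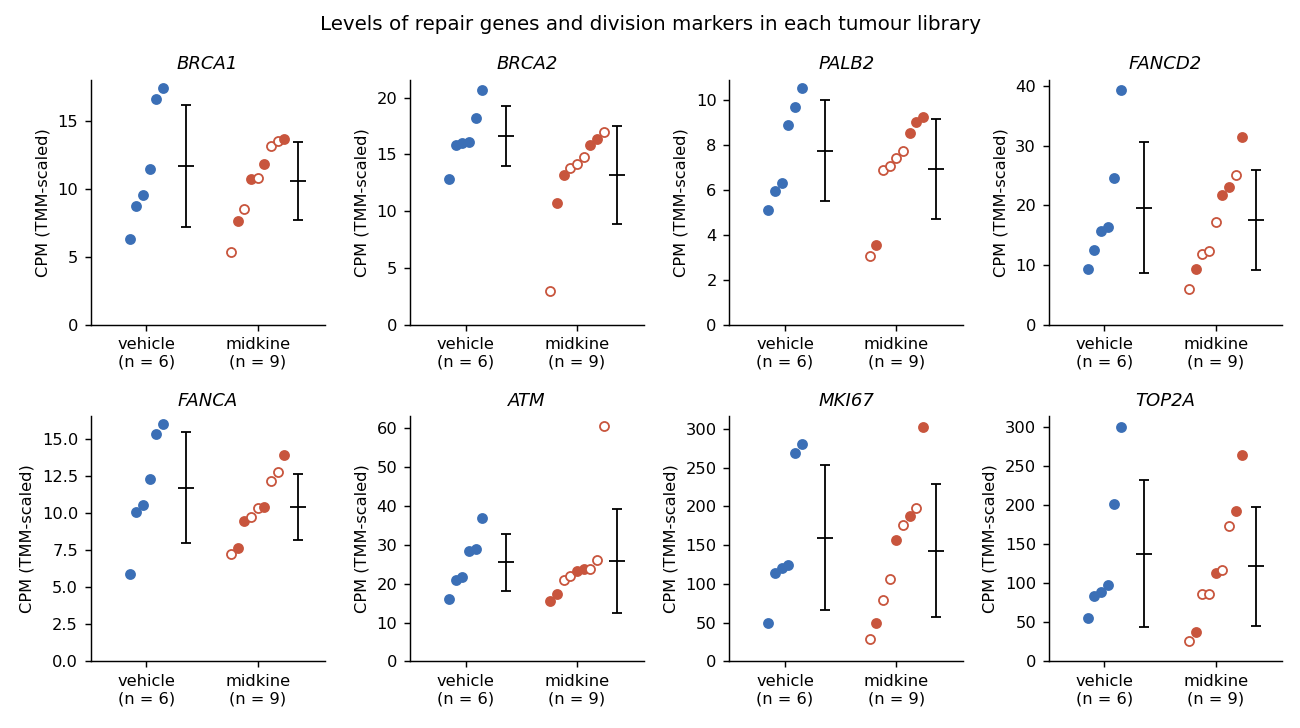
CPM (y axis, from 0) of the 6 repair genes and of MKI67 and TOP2A in 6 vehicle and 9 midkine libraries, each point a library, open where MYH4 had at most 1 count, with the mean and SD as a bar at the right of each group. The groups overlap in all 8 panels, and single libraries stand apart for BRCA2 (2.93 CPM in midkine 3-2) and ATM (60.6 CPM in midkine 4-2).

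Of the 6 genes BRCA2 had the largest absolute difference: its vehicle mean was 16.6 ± 2.63 CPM and its midkine mean 13.2 ± 4.29 CPM. Its log2 fold change was -0.33 (SE 0.28, adjusted p = 0.748 by edgeR), and the exact permutation p of its mean log2 level over 5005 splits was 0.0755. Without midkine 3-2 it was -0.20 (SE 0.15). For the other 5 genes the exact permutation p lay between 0.514 and 0.864. Vehicle and midkine libraries overlapped for all 6 genes, and 0.0171% of all genes had groups that did not overlap. The median log2 fold change of the 6 was -0.16 against 0.04 over all genes. All 10 T and NK cell, 10 macrophage, 9 endothelial, 3 adipocyte and 4 erythroid markers kept had a fitted log2 fold change above 0, with medians of 2.33, 0.96, 0.81, 1.17 and 0.96, as had 8 of 9 fibroblast markers (median 1.45), none past the edgeR threshold. Summed over the genes in the table, T and NK cell markers had a median of 132 CPM in midkine and 72.1 CPM in vehicle libraries. They reached 1531 CPM in midkine 4-2. In the same order macrophage markers had 427 and 333 CPM (1670 in midkine 4-2) and endothelial markers 484 and 314 CPM (1100 in midkine 5). Adipocyte markers had 113 and 74.2 CPM (783 in midkine 1), and erythroid markers 564 and 167 CPM (highest 1294, in vehicle 5). Of 10 epithelial markers 7 were lower (median -0.11), and of 8 basal markers 6 (median -0.27). Skeletal muscle markers had a median of 6.37 and summed to 347700 CPM in midkine 1, yet 6 of 9 midkine libraries lay below the lowest vehicle library (353 CPM), and the midkine median of the sum was 305.6 CPM against 505 CPM in vehicle. Likewise midkine 5 held 129400 CPM of fibroblast markers, against a midkine median of 5283 and a vehicle median of 1860 CPM. Their part in the values of the repair genes was not tested.

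For MKI67 the vehicle mean was 160 ± 93.3 CPM and the midkine mean 143 ± 85.7 CPM, with a log2 fold change of -0.16 by edgeR (SE 0.46, adjusted p = 0.943). With the log2 CPM of MKI67 as a covariate the log2 fold changes of BRCA1, FANCD2 and FANCA were -0.01 (SE 0.16), -0.01 (SE 0.15) and -0.05 (SE 0.17). Those of PALB2, BRCA2 and ATM were -0.08 (SE 0.18), -0.31 (SE 0.22) and 0.00 (SE 0.28). None passed (smallest edgeR adjusted p of the 6, 0.788), nor did any of the 11664 genes (0.0%), of which 7.82% had an unadjusted p under 0.05. The standard errors of BRCA1 and FANCD2 were smaller with the covariate, 0.16 against 0.26 and 0.15 against 0.37.

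**Figure D4:**
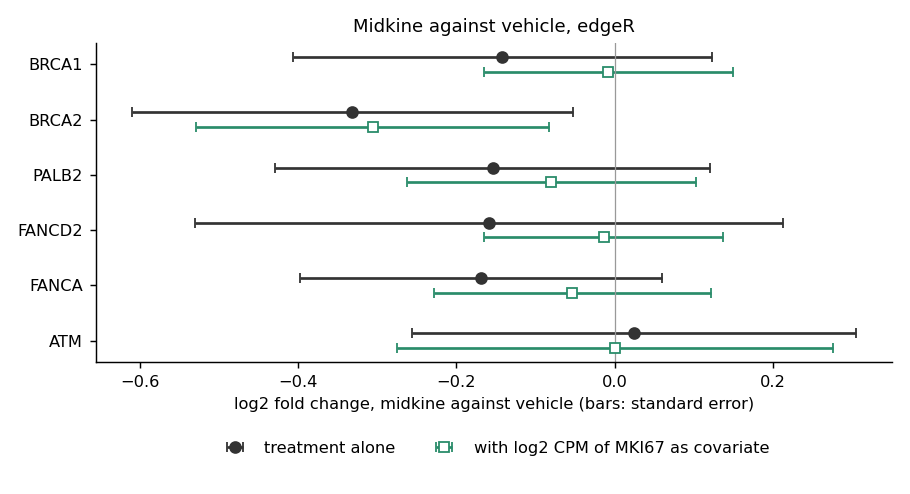
Log2 fold change of midkine against vehicle (x axis) for the 6 repair genes (y axis) by edgeR, as filled circles for treatment alone and open squares with the log2 CPM of MKI67 as a covariate, with standard errors as bars. All values lie between -0.33 and 0.02, and the bars of FANCD2 shorten from 0.37 to 0.15.

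The direction of several of these small differences depended on single libraries. Without vehicle 3, the library highest in FANCD2 and BRCA1, FANCD2 had a log2 fold change of 0.16 and BRCA1 of 0.01. Without midkine 4-2 ATM had -0.24, and within the 10 libraries with MYH4 reads it had -0.34 (SE 0.25, edgeR adjusted p = 0.643). Within those 10 libraries FANCD2 had 0.14 (SE 0.43) and BRCA2 -0.23 (SE 0.20). DESeq2 passed 0.662% of genes over all libraries and none of the 6.

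Of the other pathway genes none passed between groups by edgeR. Among 28 other recombination genes 17 were lower and 11 higher in midkine tumours (median log2 fold change -0.06). Among 15 other Fanconi genes 11 were lower and 4 higher (median -0.13), and among 19 checkpoint genes 15 were lower and 4 higher (median -0.04). CHEK1 had -0.41 (SE 0.33) and BARD1 -0.10 (SE 0.47). The end joining list of 15 genes had 8 lower and 7 higher (median -0.06). Over all genes 5171 were lower and 6494 higher. In these 4 lists TP53BP1, the end-protecting factor that opposes BRCA1, had an unadjusted edgeR p under 0.05 and no other gene did, where 10.1% of all genes had one. It had a log2 fold change of -0.26 (SE 0.12) with an adjusted p of 0.472 by edgeR.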

How the data were processed

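Counted reads per gene symbol were deposited by the authors for 15 libraries as whole numbers that sum to a different total in each library. Per the labels' protocols, poly(A)-selected libraries from 3000 ng of RNA were sequenced as 150-bp read pairs, and the submitters' processing notes name the build rn6. The sources used here do not give the counting mode, strand setting or annotation, so overlapping or antisense genes such as ATM and NPAT may share reads.

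The treatment label gave the groups. The main test of the counts was that of edgeR 4.0.16 under R 4.3.3 (expression filter by group, 11665 genes kept, trimmed mean of M-values scaling, quasi-likelihood test, Benjamini-Hochberg adjustment, threshold 0.05), with DESeq2 1.42.0 and limma-voom 3.58.1 as alternatives. Each standard error is the absolute log2 fold change over the square root of F. Correlations used log2 CPM with a prior count of 2. Their permutation p-values (Python 3.11.15, numpy 2.4.6) came from 100000 shuffles, or all orders for fewer than 10 libraries, and were adjusted over all other genes kept. Both tests were tested on simulated data. Every pair of libraries within a group differed beyond counting error (lowest chi-square per degree of freedom 19.9). Members, gene lists and tests were chosen with earlier results of these data known. All members with a row are named. Of each list the 2 genes of highest and the 2 of lowest r with MKI67 are named by rule, and BARD1, FANCB, USP1, CHEK1, H2AX, CLSPN and TP53BP1 outside it, for their role or to complete a count, after their values were seen. Some genes that these rules select are not reported here. Gene lengths were not used, so levels are not compared between genes.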

Additional observations from a re-analysis of the deposited data

Results flagged for a closer look

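BRCA2 stood at 2.93 CPM in midkine 3-2, far below the nearest of the other midkine libraries at 10.7 CPM. The gap was 0.553 of the range of the 9 midkine libraries. MKI67 (29.6 CPM) was also lowest in that library, while its summed epithelial markers (13100 CPM) were the highest of all 15.

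ATM stood at 60.6 CPM in midkine 4-2, far above the nearest of the other midkine libraries at 26.1 CPM, a gap of 0.765 of the group's range. Over the 16 groups of values examined in this way (6 repair genes, MKI67 and TOP2A in each treatment group), chance alone would single out about 1 in 20.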

How the results depend on the processing

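The number of genes correlated with MKI67, 855 in either direction, fell to 534 without the 2 libraries farthest from the median MKI67, 412 by Spearman's rho, 408 in midkine libraries alone, 331 with title numbers averaged, 242 within the 10 libraries with MYH4 reads and 0 in vehicle libraries alone (1116 there at an unadjusted p under 0.05), of which the smaller sets hold fewer libraries. Leaving out 1 library gave 404 (without midkine 3-2) to 1148 (without midkine 1). FANCD2, BRCA1 and PALB2 passed in every setting run but vehicle libraries alone, where the exact test could hardly return a call. BRCA2 and FANCA did not pass in 7 and 6 settings. The r of ATM turned within the 10 libraries (0.046) and with title numbers averaged (0.054), and ran from -0.24 to 0.043 when 1 library was left out.

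For midkine against vehicle, edgeR called 0 genes in every setting and limma-voom 0 (at an unadjusted p under 0.05, 282 higher and 320 lower, against 1178 by edgeR, 929 of them higher), while DESeq2 called 92. Within the 10 libraries FANCD2 (0.14), MKI67 (0.14) and TOP2A (0.15) turned, as did ATM (-0.34, and -0.047 by limma-voom). With 1 library left out log2 fold changes ran from -0.27 to 0.0062 for BRCA1, -0.31 to 0.16 for FANCD2, -0.24 to 0.16 for ATM, -0.38 to 0.076 for MKI67 and -0.41 to 0.20 for TOP2A. At a given MKI67 level they ran from -0.060 to 0.029 for BRCA1, -0.13 to 0.0011 for PALB2, -0.086 to 0.083 for FANCD2, -0.17 to 0.038 for FANCA and -0.24 to 0.13 for ATM. FANCD2 had 0.079 there within the 10 libraries and 0.0070 with TOP2A as covariate, and ATM 0.012 with TOP2A. Causes were not tested. At 15 to 504 counts per library, counting error made up 2.96% (ATM) to 22.1% (PALB2) of the variance of these genes.

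What title numbers shared between groups stand for is not stated. The correlations of their deviations from group means were -0.19, -0.24, 0.14, -0.19 and -0.17 for numbers 2 to 6. These values were not tested and do not settle whether the numbers mark pairs. With the number as a replicate block edgeR called 0 genes, and ATM had -0.018 (SE 0.30) and BRCA1 -0.18 (SE 0.29).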
